A study of Mus musculus with 4 samples.

Results

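The genes described here encode the lysosomal proteases of antigen processing in the mouse and 1 of their inhibitors. They are legumain (Lgmn), cathepsins S, L, B, H and Z (Ctss, Ctsl, Ctsb, Ctsh and Ctsz), cathepsin D (Ctsd) and cystatin C (Cst3). The measurement is the set of Runx3-bound regions (peaks) in splenic CD4+ DC. A peak was counted for a gene when its centre fell in the gene body or no farther than 50 kb from it. This gave 32 of the 15121 peaks on the list, around 8 genes of the 22367 protein-coding genes of the annotation. No peak fell in the windows of more than 1 of these 8 genes.

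Dendritic cells break down engulfed proteins in endosomes and lysosomes and load the resulting peptides on MHC-II for CD4+ T cells. Legumain cuts after asparagine and also processes other lysosomal proteases. The cysteine cathepsins and the aspartic protease cathepsin D degrade antigen, and cathepsin S trims the invariant chain that occupies the peptide groove of new MHC-II molecules. Cystatin C binds and blocks cysteine cathepsins. Runx3 is a RUNX family factor that recognises a short DNA core, written TGTGGT on one strand and ACCACA on the other.

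The ChIP-seq compared 2 Runx3 immunoprecipitates (Runx3_IP1 and Runx3_IP2) with 2 input controls (input1 and input2), all from sorted CD11chiMHCII+CD4+ DC. The cells carried no targeted allele and received no treatment according to the labels, and the age of the animals is not given. About 15 pooled mice are given for each sample, so a sample stands for a pool and not for an animal. The strain is C57BL/6 in the labels of both immunoprecipitates and of input1, and is written C57BL/7 for input2. The antibody was a polyclonal raised by the authors. The list is a single call over all samples, and no peak carries a value for a replicate. Therefore no spread between replicates stands behind any value below, no test between groups was possible, and all comparisons are descriptions. No RNA was measured in these samples, so the sorted cell type was not checked against its markers, and a peak says nothing of how strongly a gene is expressed. Reads per peak and depth per sample are unknown from this list, and a gene without a peak is one where none was called.

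All 8 genes had at least 1 peak, against 62.6% of protein-coding genes. The number ran from 1 at Ctsl to 9 at Lgmn, with a median of 3.5, where the median protein-coding gene had 1. At 6 of the 8 genes a peak was centred within 1 kb of a transcription start site (TSS) of the gene itself, which held for 24.2% of protein-coding genes. Ctss and Ctsh were the members without such a peak. The 8 genes were chosen with earlier results of these data known, so both contrasts are descriptions and enrichment was not tested. Scores ranged from 2.19 to 80.1 with a median of 10.5, and the median of the whole list was 12.1. Strong and weak peaks were thus both present, and 19 of the 32 scored below its median.

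Sequences are shown for the highest-scoring peak of each gene and for the peaks at its own TSS. Not all of them hold TGTGGT. Each is the mm9 sequence on the strand of the gene, taken around the TGTGGT closest to the peak centre or, where there is none, around the centre or upstream of the gene. Capitals mark TGTGGT or its complement ACCACA, the E-box CACGTG and GAGGAA or its complement TTCCTC, which is the core of sites for the myeloid factor PU.1. Bases annotated as untranslated were left out, and for this reason the peak at the Ctsd TSS is not shown.
Lgmn TSS, chr12:103678044-103678203, minus strand: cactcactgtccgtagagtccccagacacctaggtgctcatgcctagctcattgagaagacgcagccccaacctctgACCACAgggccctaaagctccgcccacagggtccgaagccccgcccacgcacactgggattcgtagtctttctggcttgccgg
Lgmn 5831 bp upstream, chr12:103683774-103683933, minus strand: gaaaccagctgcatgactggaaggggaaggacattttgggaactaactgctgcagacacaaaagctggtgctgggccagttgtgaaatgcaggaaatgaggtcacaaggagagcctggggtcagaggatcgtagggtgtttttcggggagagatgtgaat
Ctss intron, chr3:95333820-95333979, plus strand: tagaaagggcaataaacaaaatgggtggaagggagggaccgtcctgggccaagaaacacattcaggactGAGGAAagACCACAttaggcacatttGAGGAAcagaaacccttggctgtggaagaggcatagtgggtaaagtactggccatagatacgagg
Ctsl TSS, chr13:64471685-64471844, minus strand: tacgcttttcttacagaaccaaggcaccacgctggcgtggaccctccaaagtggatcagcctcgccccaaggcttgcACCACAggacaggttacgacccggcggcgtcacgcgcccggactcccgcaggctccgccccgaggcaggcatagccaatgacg
Ctsb TSS, chr14:63741142-63741301, plus strand: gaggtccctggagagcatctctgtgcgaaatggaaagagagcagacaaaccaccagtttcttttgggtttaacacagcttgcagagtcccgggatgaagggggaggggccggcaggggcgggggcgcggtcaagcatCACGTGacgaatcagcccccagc
Ctsh 20079 bp upstream, chr9:89928831-89928990, plus strand: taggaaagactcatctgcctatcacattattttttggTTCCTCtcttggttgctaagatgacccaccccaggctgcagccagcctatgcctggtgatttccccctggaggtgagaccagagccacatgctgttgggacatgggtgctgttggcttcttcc
Ctsz TSS, chr2:174264541-174264611, minus strand: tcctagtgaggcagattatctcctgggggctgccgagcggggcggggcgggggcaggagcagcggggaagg
Ctsz 566 bp upstream, chr2:174265026-174265185, minus strand: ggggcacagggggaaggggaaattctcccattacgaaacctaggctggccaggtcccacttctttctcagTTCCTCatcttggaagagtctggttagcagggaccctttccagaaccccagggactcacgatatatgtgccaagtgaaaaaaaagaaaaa
Ctsd, far downstream, chr7:149526514-149526673, minus strand: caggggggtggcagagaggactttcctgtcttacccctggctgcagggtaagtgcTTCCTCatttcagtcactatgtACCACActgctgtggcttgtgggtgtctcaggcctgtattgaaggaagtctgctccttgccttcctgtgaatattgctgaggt
Cst3 TSS, chr2:148701458-148701617, minus strand: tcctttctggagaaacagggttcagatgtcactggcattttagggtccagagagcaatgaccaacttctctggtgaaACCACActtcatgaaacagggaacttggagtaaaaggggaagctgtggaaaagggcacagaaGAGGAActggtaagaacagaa

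Lgmn (ENSMUSG00000021190.8, chr12:103632294-103678023, minus strand) had the most peaks of the group, 9 in a window of 146 kb. Only 1.49% of protein-coding genes had 9 or more. The peaks formed a run of 6 from the TSS to 13858 bp upstream of it, and no peak was centred in the 45.7 kb gene body. The peak at the TSS, from 103677756 to 103678364, had its centre 37 bp ahead of the TSS and a score of 35.2, at the percentile 86.6 of the list. An equal score was found for the peak 5831 bp upstream, from 103683636 to 103684073. Going further out, the peaks at 3757, 8539, 11738 and 13858 bp upstream scored 6.57, 4.79, 19.5 and 5.96. The run therefore alternated strong and weak peaks, and its strength did not fall steadily with distance.

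TGTGGT was present in 4 of the 6 upstream Lgmn peaks, although not in the strong one at 5831 bp. The weak peak at 3757 bp, from 103681476 to 103682085, was the only member peak with 3 copies. The number of cores and the score did not go together at this gene. On the other side of Lgmn, 3 peaks lay in the body of the neighbouring Rin3, which encodes a Rab5 guanine nucleotide exchange factor. They were centred 55531, 58622 and 72629 bp downstream of the nearest Lgmn TSS and scored 8.49, 5.29 and 14.6. When all annotated transcripts were counted, the closest TSS belonged to Rin3 for all of these, so 6 of the 9 peaks are closest to Lgmn by that measure.

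Ctss (ENSMUSG00000038642.4, chr3:95330708-95360325, plus strand) encodes cathepsin S, the member most closely tied to invariant chain removal in DC. Its 2 peaks flanked the TSS on both sides at similar distance and none covered it. The upstream peak, from 95327537 to 95328065, was centred 2907 bp before the TSS and scored 21.7. The downstream peak, from 95333588 to 95334168, was centred 3170 bp into the gene, in intron 2, and scored 31.3. Both scores are above the list median, which no other member with more than 1 peak showed. TGTGGT lay 9 bp from the centre of the upstream peak, and 22 bp from the centre of the intronic peak, which has 2 copies. In the intronic peak a GAGGAA is separated from the core by 2 bases, the shortest such spacing among the member peaks (capitals in the sequence above). The intronic peak was also centred 462 bp from the annotated start of the pseudogene Hmgb1-ps5. Ctsk, the gene of cathepsin K, is a neighbour whose own window held the same 2 peaks.

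Ctsl (ENSMUSG00000021477.7, chr13:64464522-64471614, minus strand), encoding cathepsin L, had 1 peak, from 64471646 to 64471929. Its centre lay 173 bp ahead of the TSS, its score was 9.10, and it held TGTGGT 22 bp from its centre. No other protein-coding gene reached into this window, and the next peak was centred 50378 bp from the gene body, just outside the limit.

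Ctsb (ENSMUSG00000021939.6, chr14:63741302-63764758, plus strand), encoding cathepsin B, had 3 peaks. The peak from 63741042 to 63741449 had its centre 57 bp ahead of the TSS and a score of 12.7. It held no TGTGGT but a CACGTG, which is printed in the sequence above. The other 2 peaks lay 44189 bp upstream and 55503 bp downstream of the Ctsb TSS. The peak from 63796601 to 63797010 was centred 175 bp upstream of the TSS of the squalene synthase gene Fdft1, with a score of 11.96. The peak from 63696983 to 63697244, closest to Defb30 among protein-coding genes, scored 6.57. Of the 3 peaks, 1 was thus closest to Ctsb.

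Ctsh (ENSMUSG00000032359.8, chr9:89948990-89970927, plus strand) encodes cathepsin H, which has aminopeptidase activity. It had 6 peaks, all of them away from its TSS. The strongest, from 89928654 to 89929169, was centred 20079 bp upstream, scored 33.2 and held no TGTGGT. An annotated 7SK RNA gene starts 2766 bp from its centre. A group of 3 peaks further upstream, at 39277, 40549 and 47471 bp, lay in the body of Rasgrf1 and scored 5.36, 11.7 and 22.1. The peak from 89954756 to 89955384, in intron 1 of Ctsh, scored 5.96 and held TGTGGT 15 bp from its centre. The remaining peak was centred 95 bp downstream of the TSS of Morf4l1, which encodes a chromatin protein, and scored 22.3. The intronic peak and the one at 39277 bp were the weak ones at this gene, and the other 4 scored higher. The closest protein-coding TSS was that of Ctsh for 5 of the 6 peaks, but with all annotated transcripts counted 7SK was closest to the 4 upstream peaks and Ctsh to 1.

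Ctsz (ENSMUSG00000016256.9, chr2:174252994-174264540, minus strand) encodes cathepsin Z, a carboxypeptidase. Of its 5 peaks, 3 were placed around the start of the gene. The peak from 174264902 to 174265311, 566 bp upstream, scored 20.6. The peak from 174264288 to 174264611, centred 32 bp upstream of a TSS and in exon 1 of the longest transcript, scored 7.20. The peak from 174263017 to 174263554, in intron 2, scored 7.44. None of these 3 held TGTGGT. The other 2 peaks, at 25205 and 34223 bp upstream, were centred 139 and 181 bp upstream of the TSS of Atp5e, a subunit gene of ATP synthase, and of Slmo2. Both held TGTGGT and scored 7.89 and 10.5.

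Ctsd (ENSMUSG00000007891.8, chr7:149557053-149573943, minus strand) encodes cathepsin D, the aspartic protease of the group. The peak at its TSS, from 149573613 to 149573933, had its centre 13 bp ahead of a TSS and a score of 2.19, the lowest of the 32 and at the percentile 0.341 of the list. It was also the member peak with the most CpG, 11.5 per 100 bp. A peak 8699 bp upstream, from 149582484 to 149582800, scored 10.5 and held TGTGGT 22 bp from its centre. The highest score of the group, 80.1, belonged to the peak from 149526264 to 149526837, which ranks 342 in the list. This peak was centred 42022 bp downstream of the nearest Ctsd TSS, in the body of 6330512M04Rik, and the nearest annotated TSS, at 2623 bp, was also one of 6330512M04Rik. It held TGTGGT, with a GAGGAA 16 bases away, and CACGTG. Another peak in 6330512M04Rik, from 149520184 to 149520500, scored 8.74 and was closest to Krtap5-4 among protein-coding genes. The strongest and the weakest peak of the whole group hence lay in the window of the same gene. The strong one was far from Ctsd and closest to a TSS of 6330512M04Rik, and the weak one was on a TSS of Ctsd.

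Cst3 (ENSMUSG00000027447.6, chr2:148697458-148701428, minus strand), encoding the inhibitor cystatin C, is the shortest gene of the group at 3.97 kb. The peak from 148700970 to 148701795 was centred 46 bp downstream of a TSS and scored 43.1, at the percentile 90.6 of the list. It was the widest member peak, 826 bp, and the strongest of the 7 peaks centred within 1 kb of a TSS of a member. Its TGTGGT lay 156 bp from the centre, the greatest distance among the member peaks with the core. The other peak, from 148714580 to 148715056 and 13390 bp upstream, scored 9.84 and held TGTGGT and TGANTCA, the site of AP-1 factors. The neighbours in this window are other cystatin genes, Cst13 and Cst9, and 9230104L09Rik, and both peaks had their nearest TSS at Cst3.

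**Figure D1:**
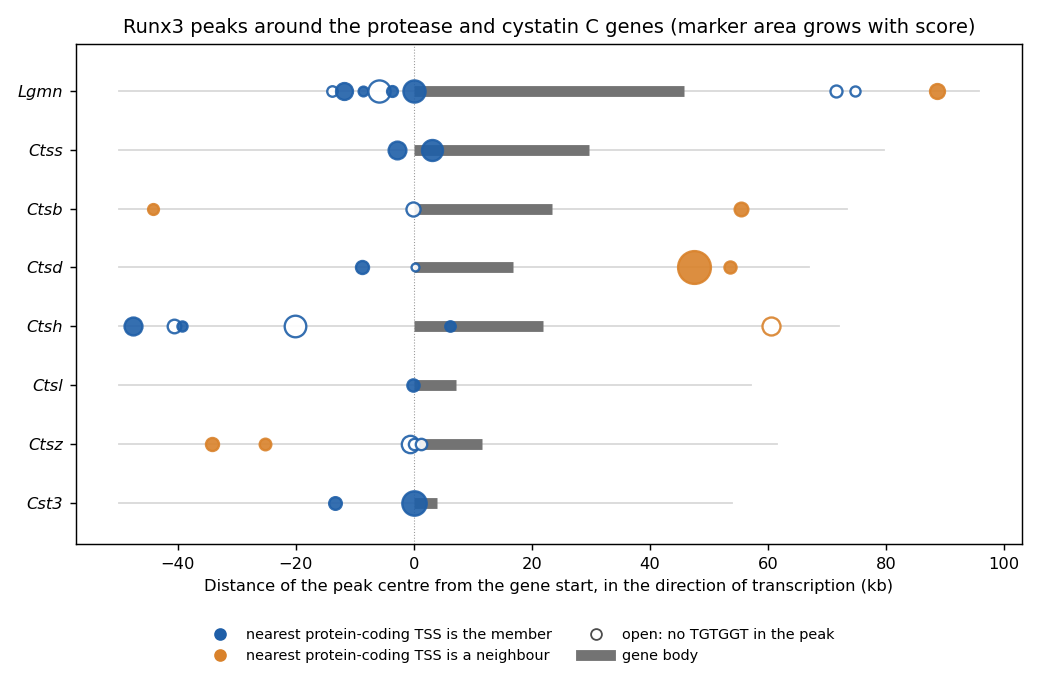
Runx3 peaks around each gene. The x axis gives the distance of the peak centre from the gene start in kb, in the direction of transcription, marker area grows with score, and open markers lack TGTGGT. The 6 peaks from the Lgmn TSS to 13858 bp upstream and the large marker for the peak of score 80.1 beyond the end of Ctsd can be seen.

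By position, 6 of the 32 peaks were centred in the body of the member gene, 19 upstream of it and 7 downstream. All 8 genes had a peak upstream of their start, but the share of all protein-coding genes with such a peak was not counted. Of all 32, 9 lay in the body of another protein-coding gene and 17 in no protein-coding gene. The nearest protein-coding TSS was that of the member for 24 peaks, and that of a neighbour for 8. The neighbours were Rin3, Defb30, Fdft1, 6330512M04Rik, Krtap5-4, Morf4l1, Slmo2 and Atp5e. Peaks closest to a neighbour scored from 6.57 to 80.1 with a median of 11.2, and those closest to a member scored from 2.19 to 43.1 with a median of 10.2. The 2 ranges overlapped between 6.57 and 43.1. When all annotated transcripts were counted, a TSS of the member was the closest for 17 of the 32 peaks.

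Within 1 kb of any annotated TSS lay 12 peaks, or 37.5% (Wilson 95% interval 22.9% to 54.7%), beside 38.0% of all peaks. Of these 12, 7 were at a TSS of a member. The promoter share of the group was thus close to that of the list, and its interval was wide. The intervals given here and below cover counting error only. The 7 peaks at a member TSS had a median score of 12.7, and all peaks of the list within 1 kb of a TSS had 12.4. Their median GC content was 59.9%, where the promoter peaks of the list had 59.7%. The other 25 peaks, of which 5 lay within 1 kb of another annotated TSS, had a median GC content of 50.8%. All peaks of the list beyond 1 kb of any TSS had 47.5%.

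**Figure D2:**
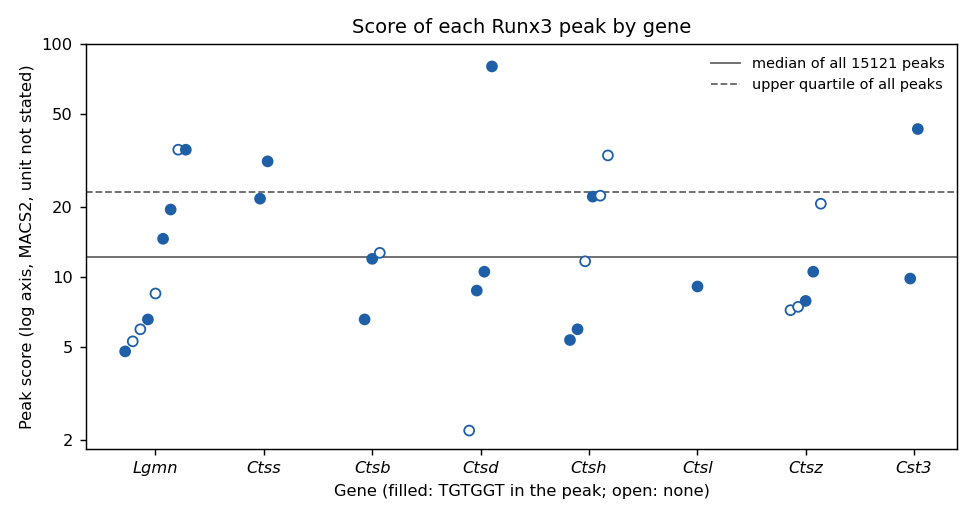
Score of each of the 32 peaks by gene, on a log axis, with the median of the list (12.1, solid line) and its upper quartile (23.2, dashed line). Filled points hold TGTGGT, and 6 points from Lgmn, Ctss, Ctsd, Ctsh and Cst3 lie above the upper quartile.

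Of the member peaks 6 scored at or above the upper quartile of the list, 23.2, beside 25.4% of all peaks. These 6 belonged to 5 genes, and 31.0% of protein-coding genes had a peak of this strength in their window. At Lgmn there were 2 of them. Ctsb, Ctsl and Ctsz had none, and their highest scores were 12.7, 9.10 and 20.6. Ctsl alone had no peak at or above the list median. The width of member peaks ran from 253 to 826 bp with a median of 401 bp, and the median of the list was 406 bp. Across the 32 peaks, which share their libraries and are not replicates, score and width went together (Spearman rho = 0.569).

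**Figure D3:**
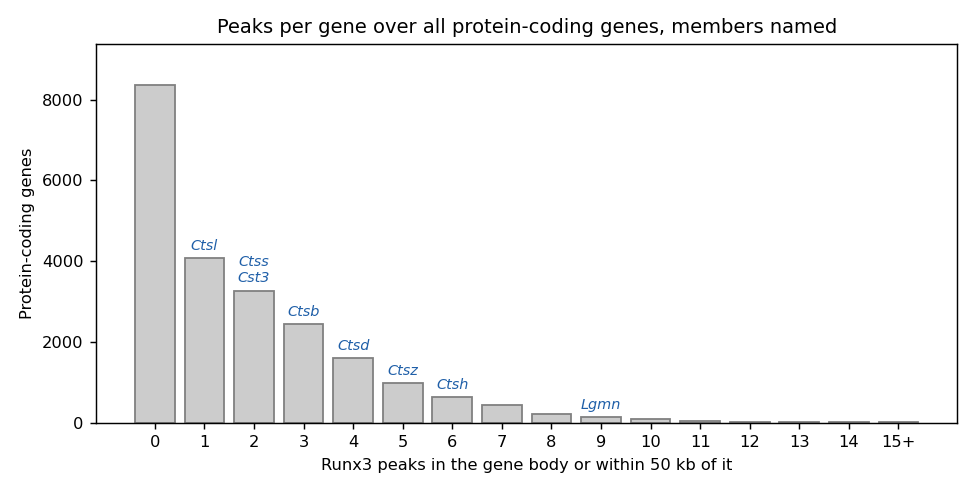
Number of protein-coding genes (y axis) by the number of Runx3 peaks in the gene body or within 50 kb (x axis), with the 8 genes named above their bars. Lgmn, with 9 peaks, and Ctsh, with 6, lie in the right tail, and Ctsl, with 1, sits at the median.

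The RUNX core TGTGGT, looked for along the full peak on either strand, was present in 20 of the 32 peaks, or 62.5% (Wilson 95% interval 45.3% to 77.1%), beside 54.0% of all peaks. The interval includes the share of the list. Each of the 8 genes had at least 1 peak with the core, and the 20 peaks held 24 copies. The share of all protein-coding genes with a peak that holds the core was not counted. More than 1 copy was found in 3 member peaks, beside 18.5% of all peaks. The copy nearest to the centre was at most 50 bp away in 14 of the 20 peaks, with a median distance of 43.5 bp. Over all peaks with the core 54.2% had it this close, at a median distance of 46 bp. Member peaks with the core had a median score of 10.5, and those without it 10.1.

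Within 1 kb of any annotated TSS, TGTGGT was in 7 of 12 member peaks, or 58.3% (Wilson 95% interval 32.0% to 80.7%), beside 34.4% of such peaks in the list. Of the 7 peaks at a member TSS, 3 held it, namely those of Lgmn, Ctsl and Cst3. Farther than 1 kb from any TSS the core was in 13 of 20 peaks, or 65.0% (Wilson 95% interval 43.3% to 81.9%), beside 66.1% of such peaks in the list. The promoters themselves, taken as 250 bp upstream to 50 bp downstream of the gene start, were searched in the same way. TGTGGT was present in those of Cst3, Ctsd, Ctsh, Lgmn and Ctsl, 5 of 8, and in 15.3% of the 22362 promoters of protein-coding genes with a full window. At Ctsd the copy in the promoter lay outside the called peak, and at Ctsh a promoter copy was present although no peak was called within 1 kb of the TSS. A match is a description of these letters and does not show a bound site.

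Other short motifs were searched on both strands in the same peaks. GAGGAA was in 17 of 32 peaks, or 53.1%, beside 53.6% of all peaks. CACGTG, the E-box that forms the middle of the sites of TFEB, a regulator of lysosomal genes, was in 3 peaks, or 9.38%, beside 10.9% of all peaks. These were the TSS peaks of Ctsb and Ctsd and the strong peak downstream of Ctsd. In the promoter windows CACGTG was present at Ctsd and Ctsb only, and in 7.79% of all promoters. GAGGAA was in 6 of the 8 promoters, all but those of Lgmn and Ctsz, and in 28.1% of all promoters. TGACGT, the core of CRE sites and of that of zDC (Zbtb46), a factor of classical DC, was in 1 peak, the one 13858 bp upstream of Lgmn, beside 11.0% of all peaks. TGANTCA was in 3 peaks, beside 13.2%. TGCGGT, a variant of the RUNX core, was in 4 peaks, beside 20.1%, and TGTGGT or TGCGGT in 22, or 68.8%, beside 66.5%. The Wilson 95% interval of each member share included the share of the list.

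**Figure D4:**
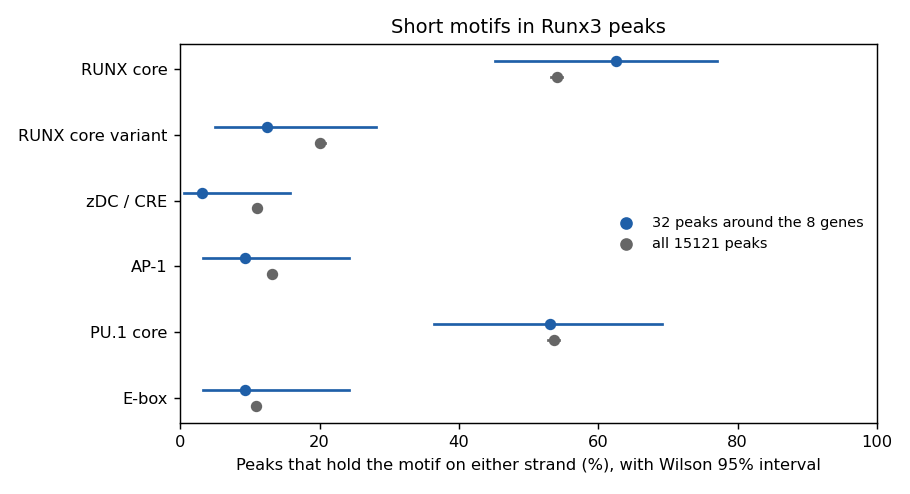
Share of peaks with each motif (x axis, percent) for the 32 member peaks and all 15121 peaks, with Wilson 95% intervals as lines. RUNX core is TGTGGT, its variant TGCGGT, zDC / CRE TGACGT, AP-1 TGANTCA, PU.1 core GAGGAA and E-box CACGTG, and every interval of the member peaks spans the value of the whole list.

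Other genes of the same compartment were counted by the same rule. Of 13 further lysosomal proteases, 12 had a peak, beside 62.6% of protein-coding genes, with a median of 3 peaks per gene. For 6 of the 13 a peak had its nearest protein-coding TSS at the gene itself, as did all 8 genes described here. A peak within 1 kb of their own TSS was found for 5 (Ctsa, Ctsc, Napsa, Scpep1 and Prcp), beside 24.2%. Ctsa, encoding the protective protein cathepsin A, had 9 peaks, but none of them had its nearest protein-coding TSS at Ctsa. Ctsw and Napsa had 6 each, of which 0 and 2 were closest to their own TSS. Ctsg, the neutrophil serine protease cathepsin G, had 0. Of the 45 distinct peaks 15 held TGTGGT, or 33.3%, below the 54.0% of all peaks, and 2 were shared with Ctss. Of 6 other inhibitors of cysteine cathepsins 4 had a peak, a share close to the 62.6% of all protein-coding genes, with 3 at Cstb and 2 each at Cst6, Cst7 and Stfa3. Stfa1 and Stfa2 had 0. Only Cst7, encoding cystatin F, had a peak within 1 kb of its own TSS, 1 of 6 beside 24.2% of protein-coding genes. For 2 of the 6 inhibitors a peak had its nearest protein-coding TSS at the gene itself. Of the 9 distinct peaks of the inhibitors 6 held TGTGGT, or 66.7%, beside 54.0% of all peaks.

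The third list held 13 genes of MHC-II peptide handling and of the lysosome. All 13 had a peak, beside 62.6% of protein-coding genes, and 9 had a peak at their own TSS, beside 24.2%. Their median was 9 peaks per gene, above the 3.5 of the 8 genes described here. For 12 of the 13 a peak had its nearest protein-coding TSS at the gene itself. Ciita, the MHC-II transactivator, had 16 peaks, H2-Ob 14, and H2-DMb1 and H2-DMb2 13 each. The peaks closest to the gene's own TSS numbered 6 at Ciita, 1 at H2-Ob, 1 at H2-DMb1 and 2 at H2-DMb2. The H2-DM and H2-O genes share peaks as neighbours, and the list held 76 distinct peaks. TGTGGT was in 35 of these 76, or 46.1%, beside 54.0% of all peaks. Tfeb, listed as Tcfeb in the annotation, had 9 peaks, of which 7 were closest to its own TSS. Ifi30 also had 9 peaks, or 8.62 per 100 kb, but 0 of them had their nearest protein-coding TSS at Ifi30. Lamp1 had 2 peaks, Lamp2 1, Tfe3 2 and Mitf 4. These genes had between 0.645 and 1.78 per 100 kb, below the median of the 8 genes. Per 100 kb of window, Lgmn had 6.18 peaks, Ctsh 4.92, Ctsz 4.48 and Ctsd 3.42, and the remaining members had between 0.934 and 2.43. The median was 2.93 for the 8 genes, 2.28 for the other proteases, 1.87 for the inhibitors, 8.62 for the third list and 0.880 for all protein-coding genes. All lists exceeded the median of all genes, and no test of these differences was made, since the lists were chosen with results of these data known and genes in a list can share peaks.

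**Figure D5:**
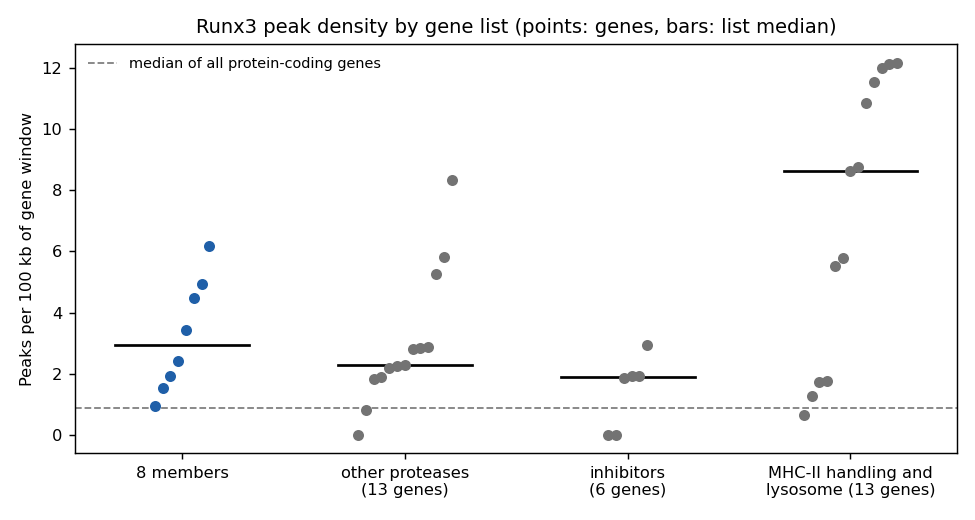
Runx3 peaks per 100 kb of gene window (y axis) for each gene of the 4 lists, with list medians as bars and the median of all protein-coding genes (0.880) as a dashed line. Lgmn, the highest of the 8 members at 6.18, lies below the highest genes of the MHC-II and lysosome list, of which H2-Ob reaches 12.2.

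The limit of 50 kb passed near some peaks. The outermost peaks inside it were those 47471 bp from Ctsh, 44189 bp from Ctsb and 42944 bp from Lgmn, with scores of 22.1, 6.57 and 14.6. Just outside were peaks 50189 bp from Ctsh, 50378 bp from Ctsl, 52724 bp from Ctss, 54679 bp from Lgmn and 54699 bp from Ctsd, with scores of 5.36, 8.49, 8.49, 17.3 and 20.1.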

How the data were processed

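Runx3 ChIP-seq of splenic CD11chiMHCII+CD4+ DC (2 immunoprecipitates, 2 inputs) used sonicated chromatin (about 300 bp) sequenced as 50 bp reads. Per the methods, the authors aligned reads uniquely to mm9 with bowtie and detected bound regions with MACS2, and the submitters' processing notes add CASAVA 1.8. The deposited file has 1 value column, the MACS2 peak score, in a unit that is not given, from 1 call over the pooled samples, and versions, threshold and duplicate handling are not given in the sources used here. Unique alignment leaves repeats and near-identical copies uncovered. Positions were counted from 1. GENCODE M1 and the NCBIM37 sequence, which is mm9, were used. Distances run from the peak centre to TSS of protein-coding transcripts unless stated, and exon and intron numbers follow the longest coding transcript. Older symbols were matched with RefSeq of GRCm38.p6, and all 32 genes of the other lists matched. Named were the 8 genes, neighbours holding the nearest protein-coding TSS, and genes of the lists with 0 or the most peaks. Genes with a TSS peak, genes around a peak and some further list members were named after their values were seen. The 8 genes, the lists and the motifs were chosen with earlier results of these data known. Counting was tested on simulated data. Alternatives were other distances, score limits, overlap, joined peaks, transcripts, TSS sets and motif windows. Python 3.11.15, scipy 1.17.1, pandas 2.3.3 and pysam 0.24.0 were used.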

Additional observations from a re-analysis of the deposited data

How the results depend on the processing

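The number of genes with a peak was 8 within 10 kb, with joined peaks, the longest transcript or the nearest protein-coding TSS. It was also 8 within 100 kb and for any base of the peak, rules that cannot lose a gene. It was 7 for scores at or above the list median, and 5 in the gene body alone. For scores at or above the upper quartile it was 5, beside 31.0% of protein-coding genes. The share of all protein-coding genes was not counted under the other alternatives. The number of peaks was 6 in the gene body alone, 15 within 10 kb and 50 within 100 kb, and 13 and 6 for scores at or above the list median and the upper quartile. It was 24, 31 or 32 under the other alternatives. Peaks nearest to a protease TSS fell to 10 for scores at or above the median. Within the 200 bp around the peak centre TGANTCA was in 0% of the member peaks, beside 7.09% of all peaks. GAGGAA was in 31.3% of the member peaks there, beside 36.4% of all peaks. Each of these alternatives takes in less or more sequence, or fewer peaks, by its construction. Other shares, counts and the median score stayed within the interval of the reported share, or within 1.5 times the reported value. No paired analysis was possible because the list holds no value per sample, and no sample could be left out for the same reason. Reads per peak are unknown, so what depth limits could not be measured beyond the fact that weaker regions are not listed.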
